A study of Bos taurus with 8 samples.

Results

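CCL1 was followed as 1 of the 21861 genes of the scRNA-seq tables (identifier ENSBTAG00000008832) in peripheral blood mononuclear cells (PBMCs) of Holstein cattle. It was picked by its name, because its rise between no LPS and 8 h LPS had already been seen in these libraries, so its level by time is given here as a description. Blood of 4 lactating cows aged 2 years was pooled, then divided into 4 parts, and 1 part received no lipopolysaccharide (LPS) and the others were kept with LPS at 2 µg/ml for either 2 h, 4 h or 8 h. PBMCs were isolated from each part after the treatment, and 1 scRNA-seq with 1 scATAC-seq library was made per part. Animals cannot be told apart in the pool, and no incubation time is given for the part without LPS. With 1 library per treatment no difference has a replicate check, no test was possible, and treatment and library cannot be told apart.

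CCL1 (also called I-309 or TCA-3) is a small secreted CC chemokine. It is known as a product of activated T cells, mast cells and monocytes, and it attracts cells that carry the receptor CCR8, among them regulatory and type 2 helper T cells. LPS is sensed mainly by myeloid cells through TLR4 with CD14. Natural killer (NK) cells of cattle are marked by NCR1 (NKp46), T cells by CD3E of the T cell receptor complex, monocytes by CD14 and B cells by MS4A1 (CD20).

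The scRNA-seq values were unique molecular identifiers (UMIs), each counting 1 captured transcript molecule. The tables held 8490, 10429, 7977 and 3860 barcodes (no LPS, 2 h, 4 h and 8 h), of which 7821, 9865, 7387 and 3411 lay within the limits (from 200 up to 3000 genes, 200 UMIs or more, and less than 20% of UMIs mitochondrial). Levels are given in CPM, which is UMIs per 1e6 UMIs of the same cells. All intervals are exact 95% intervals that cover counting error only, from 38503367, 47875879, 40160248 and 16657841 UMIs in the cells kept. Any 2 libraries shared 8 to 24 barcodes, at most 0.363% of the smaller one. The labelled tissue was met by its markers, since CD3E had a UMI in 51.1% to 56.8% of the cells kept, MS4A1 in 27.0% to 29.8%, CD14 in 3.98% to 15.8% and NCR1 in 1.34% to 1.91%. HBB of red cells had a UMI in 6.07% to 13.1%.

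In the cells kept, CCL1 was near absent in 3 libraries and high at 8 h. It had 22 UMIs (no LPS), 7 (2 h), 4 (4 h) and 373 (8 h). These gave 0.571 CPM (0.358 to 0.865), 0.146 CPM (0.0588 to 0.301), 0.0996 CPM (0.0271 to 0.255) and 22.4 CPM (20.2 to 24.8). The counting intervals of 2 h and 4 h overlapped, while that of 8 h lay above the other 3. The 8 h level was 39.2-fold that without LPS (25.5 to 63.3), or 3.90 on the log2(CPM + 1) scale. This was the highest of the 11778 genes compared, of which 0.492% were at least 2-fold higher on that scale, and since the gene was chosen for this rise nothing is read from its place.

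The 8 h UMIs sat in 2 barcodes. One held 228 CCL1 UMIs and the other 109, together 90.3% of the 373. The other 36 positive cells held 1 UMI each. Without the 2 barcodes the 8 h level was 2.16 CPM (1.51 to 2.99), which was 3.79-fold that without LPS (2.17 to 6.76). Among the 4172 genes with 200 to 1000 UMIs in the cells kept at 8 h, CCL1 had the highest share of its UMIs in its 2 richest cells. The next were DEFB10, a beta-defensin, with 76.8%, LCN2, an iron-scavenging protein of neutrophils, with 71.0%, and CA4, a carbonic anhydrase, with 64.8%, and the median gene had 1.65%.

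The limit of 3000 genes decided how CCL1 compared between libraries. Over every deposited barcode it had 534, 74, 108 and 376 UMIs in the same order. The levels became 9.20 CPM (8.44 to 10.0), 1.16 CPM (0.911 to 1.46), 1.91 CPM (1.57 to 2.31) and 12.2 CPM (11.0 to 13.5), and the ratio of 8 h to no LPS became 1.32-fold (1.16 to 1.51). On this count CCL1 was number 1661 of 12330 genes, of which 0.479% were at least 2-fold higher. The barcodes above the gene limit numbered 619, 511, 542 and 419 and held 33.6%, 24.9%, 28.8% and 46.0% of the UMIs of their libraries. They carried 512, 67, 104 and 3 of the CCL1 UMIs, or 26.3, 4.23, 6.40 and 0.211 CPM, so that among them 8 h was lowest. A single barcode held 505 of the 534 UMIs without LPS, and a single barcode held 104 of the 108 at 4 h. Without any barcode that held 5 or more CCL1 UMIs, the levels over every barcode were 0.500, 0.142, 0.0709 and 1.26 CPM, and the 8 h level was 2.53-fold that without LPS (1.52 to 4.23).

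**Figure D1:**
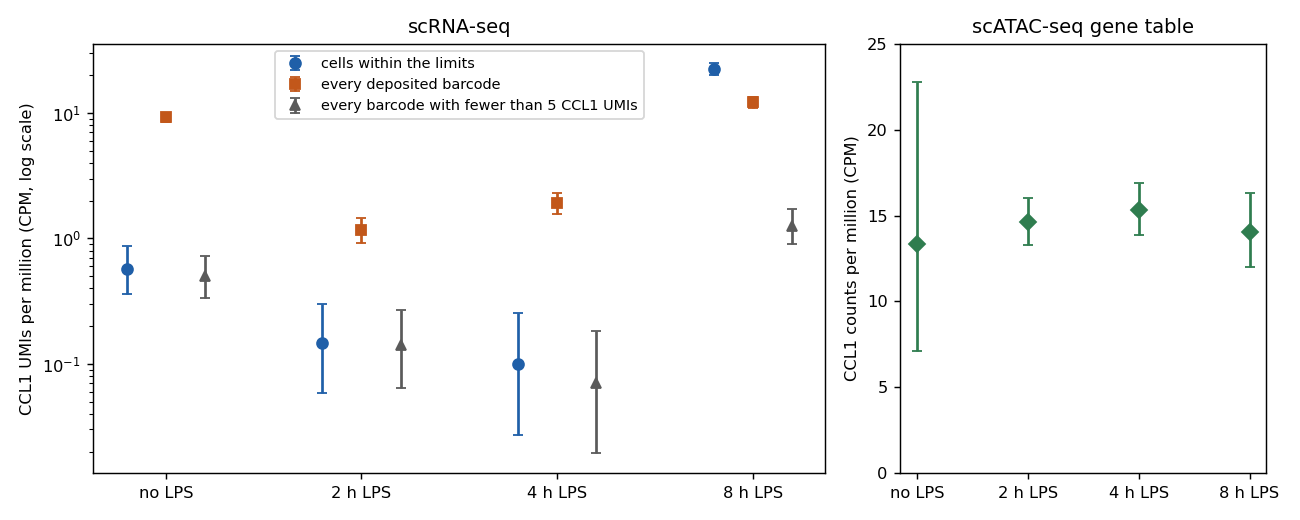
Level of CCL1 by library. Left: CPM on a log axis with exact 95% counting intervals, in the cells within the limits (circles), in every deposited barcode (squares) and in every barcode with fewer than 5 CCL1 UMIs (triangles), where the 8 h level falls from 22.4 to 12.2 and 1.26 CPM while that without LPS is 0.571, 9.20 and 0.500 CPM. Right: CPM in the scATAC-seq gene tables, where the 4 values lie between 13.3 and 15.3 CPM with overlapping intervals.

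Over all 4 libraries, 78 of the 30756 barcodes had a CCL1 UMI, and they held 1092 UMIs. Of these barcodes 66 had 1 UMI, 5 had 2 to 4, and 7 had 5 or more. The 7 held 1011 UMIs, or 92.6%. The line at 5 was drawn after the counts were seen, with 6 UMIs in the barcode just inside it and 4 in those just outside. None of the 7 barcodes occurred in another library. Of the 7, 1 came from the library without LPS, 3 from 2 h, 1 from 4 h and 2 from 8 h, and the 5 of the first 3 libraries all had more than 3000 genes.

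**Figure D2:**
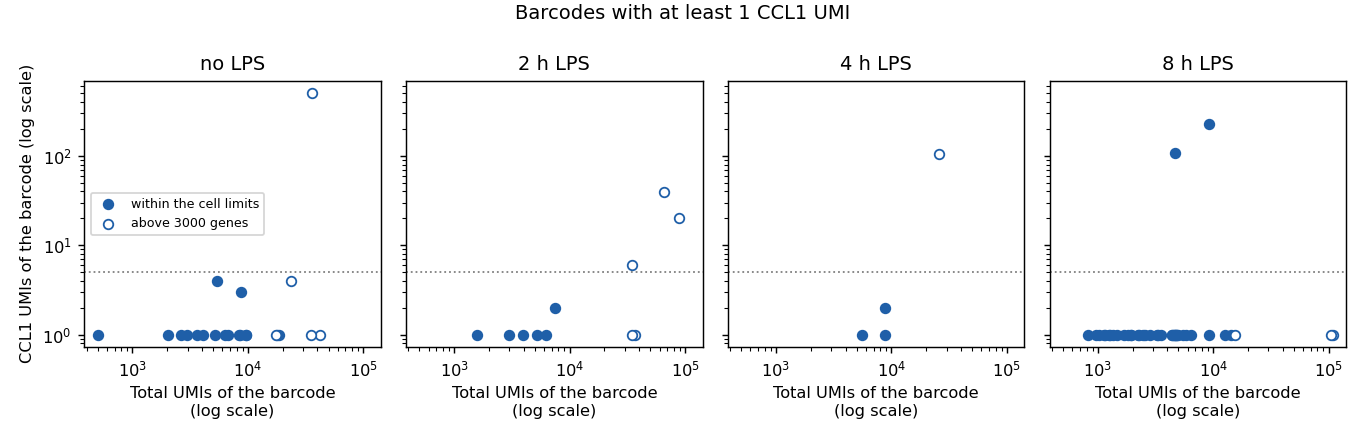
CCL1 UMIs against total UMIs for each of the 78 barcodes with a CCL1 UMI, by library, both axes on a log scale. Filled points lie within the cell limits, open points have more than 3000 genes, and the dotted line marks 5 UMIs: the points at 228 and 109 UMIs at 8 h are filled, and those at 505, 39, 20, 6 and 104 UMIs in the other libraries are open.

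The 2 barcodes of 8 h were cells of ordinary depth. The first had 9191 UMIs from 2302 genes, of which CCL1 made up 2.48% (2.17% to 2.82%). The second had 4694 UMIs from 1577 genes, of which CCL1 made up 2.32% (1.91% to 2.79%). CCL1 was the gene with the second-highest count in each, after the unnamed gene ENSBTAG00000009943, which had 246 and 147 UMIs. Their depth was 1.83 and 0.933 times the median of their library.

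NK cell markers were detected in both barcodes, but PRF1, GZMA, GZMB and GNLY were not. Neither barcode had a UMI of CD3E, CD14 or MS4A1, and none of the 11 B cell or 11 monocyte markers was detected in either. Of the 17 NK cell markers listed, 8 were detected in the first barcode with 31 UMIs and 5 in the second with 12. These were CTSW, a protease-like protein of cytotoxic lymphocytes, with 8 and 3 UMIs, the chemokine XCL1 with 8 and 4, the lectin receptor KLRD1 (CD94) with 3 and 2, the Fc receptor FCGR3A with 2 and 2, and the adaptor TYROBP with 4 and 1. In the first barcode NCR1 had 2 UMIs, NKG7 3 and CD7 1, and all 3 genes were at 0 in the second. These genes of cytotoxic granules, and the receptors NCR3, KLRK1, KLRF1, KLRB1 and KLRC1, were at 0 in both. For comparison, 37 other cells of 8 h had NCR1 but no CD3E, CD14 or MS4A1 UMI. Among them PRF1 was detected in 29, GNLY in 10, GZMA in 2 and GZMB in 0. KLRB1 was detected in 18, NCR3 in 15, KLRK1 in 14, KLRF1 in 4 and KLRC1 in 0. The zeros other than that of PRF1 were thus not unusual for such cells. Of the T cell markers, CD247, a signalling chain that NK cells also use, had 2 and 1 UMIs and CD6 had 1 and 0. IL7R of innate lymphoid and T cells had 3 and 1 UMIs, while IL23R was at 0. The mast cell and basophil markers and the 4 γδ T cell markers in the table were at 0 in both. The barcodes are therefore called CCL1-rich here and given no cell type.

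Within the limits, 1 cell with NCR1 carried CCL1 at 8 h. At that time, 50 of the cells kept had an NCR1 UMI, and 49 of them had no CCL1 UMI, which allows a share of up to 6.12% (3 counts of the total), above the 1.11% of all cells kept at 8 h. Over every deposited barcode of 8 h, 3 of 69 with NCR1 had a CCL1 UMI, with 230 UMIs in all. In the cells with NCR1 but no CD3E, CD14 or MS4A1 UMI (called NCR1-only), CCL1 had 0 UMIs in 58 cells without LPS, in 97 at 2 h and in 90 at 4 h, which allows levels of up to 10.4, 6.35 and 5.78 CPM. At 8 h 1 of 38 such cells carried it, with all 228 UMIs, which gave 868 CPM (759 to 988) for the group and 61.1% of the library's CCL1 UMIs. Without that cell the level was 0. NKG7 was detected in 70.1% to 81.6% of NCR1-only cells, PRF1 in 71.1% to 79.4% and CTSW in 72.2% to 76.3%, over the 4 libraries. The second CCL1-rich barcode belonged to the 29 cells of 8 h with NCR1 at 0, at least 3 NK markers and no CD3E, CD14 or MS4A1, which held 110 CCL1 UMIs. The matching 133 cells without LPS held none.

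The barcode with 505 CCL1 UMIs in the library without LPS was rich in other cytokines. Its highest count was that of ENSBTAG00000009943, as in the 2 barcodes of 8 h, with 1123 UMIs. It had 35861 UMIs from 4197 genes, 8.58 times the median depth of its library, and CCL1 made up 1.41% of them (1.29% to 1.54%). CSF2 (GM-CSF), the growth factor of granulocytes and macrophages, had 834 UMIs, XCL1 769, IFNG 72 and the chemokine CCL3 104. CTSW had 33 UMIs, GNLY 13, NKG7 12 and NCR1 1, and CD3E and MS4A1 were at 0. CD14 had 1 UMI, and 6 of the 11 monocyte markers were detected with 38 UMIs. With UMIs of both NCR1 and CD14 it did not count as NCR1-only.

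The 3 barcodes of 2 h and the 1 of 4 h had another makeup. Those of 2 h held 39, 20 and 6 CCL1 UMIs among 65613, 87804 and 34937 UMIs. Their depth was 15.7, 21.0 and 8.36 times the median, and CCL1 was 0.0594%, 0.0228% and 0.0172% of their UMIs. Monocyte markers gave 385, 473 and 193 UMIs in them, and IL1B, an inflammatory cytokine of myeloid cells, 901, 485 and 396. The barcode with 20 CCL1 UMIs also had 13 UMIs of CD3E, 8 of MS4A1 and 38 of CSF2. The 4 h barcode held 104 CCL1 UMIs among 26026 (0.400%), with 198 of CSF2, 414 of IL1B, 87 of monocyte markers, 23 of B cell markers and 4 of CD3E. Whether these barcodes hold more than 1 cell was not tested.

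**Figure D3:**
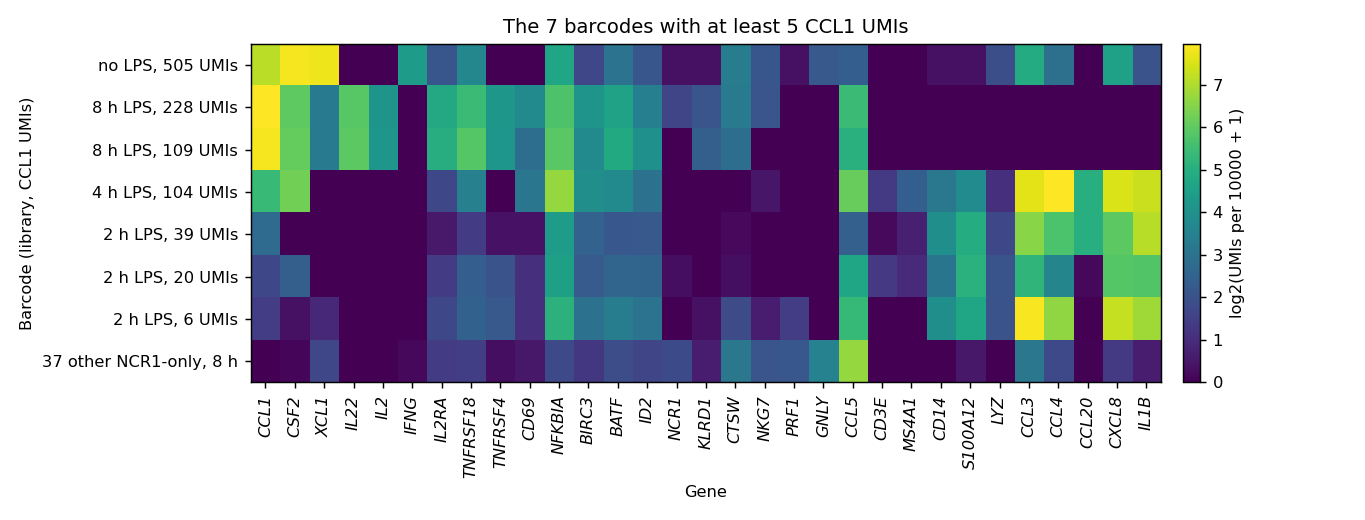
Gene levels in the 7 barcodes with at least 5 CCL1 UMIs and in the 37 NCR1-only cells of 8 h without CCL1, as log2(UMIs per 10000 UMIs + 1). The 2 barcodes of 8 h share IL22, IL2, CSF2, IL2RA, TNFRSF18 and TNFRSF4 and lack CCL3, CCL4, CXCL8 and IL1B, which are high in the barcodes of 2 h and 4 h, while the barcode without LPS is highest, among the genes drawn, in CSF2 and XCL1.

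Of the 20 genes that went most with CCL1 at 8 h, 2 were cytokines (IL22 and CSF2) and 4 were receptors or surface antigens of activated lymphocytes (TNFRSF4, TNFRSF18, CD69 and IL2RA). Genes were ranked by comparing the 1 CCL1-positive NCR1-only cell (9191 UMIs) with the 37 negative ones (253489 UMIs), as log2 of the ratio of CPM + 1. Of 1519 genes with at least 20 UMIs, 311, or 20.5%, were at least 2-fold higher in the positive cell. As this sets 1 cell against a sum of 37, the ratios describe these cells only. The 20 UMIs include those of the positive cell, and IL22 and CSF2, among others, reached them only through it. IL22, a cytokine that acts on epithelia, had 54 UMIs in the positive cell and 0 in the 37 others, at least 496-fold higher against a floor of 3 counts over the group. CSF2 had 57 UMIs against 2, a ratio of 786 (208 to 6647).

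Receptors followed the 2 cytokines. TNFRSF4 (OX40), a costimulatory receptor, was 73.5-fold higher (27.3 to 230), with 16 UMIs against 6. TNFRSF18 (GITR), of the same family, had 39 UMIs against 46 and was 23.4-fold higher (14.9 to 36.6). CD69, an early activation antigen, was 30.1-fold higher (12.2 to 75.3). IL2RA, the high-affinity chain of the interleukin-2 receptor, was 16.0-fold higher (9.38 to 26.9). The signalling genes among the 20 highest were NFKBIA, the inhibitor of NF-κB, 21.7-fold higher, PIM1, a survival kinase, 13.8-fold, BIRC3, an inhibitor of apoptosis, 11.2-fold, STAT4, the transducer of interleukin-12 signals, 9.19-fold, and BATF, an AP-1 family transcription factor, 8.52-fold. The others were PTI (pancreatic trypsin inhibitor) at 31.2-fold, ENSBTAG00000009943 at 22.9-fold, the membrane-fusion gene STX11 at 14.9-fold, PNP of purine salvage at 10.3-fold, and RANBP1, FBL, COPS5, NUDT9 and PHB2 at 8.11-fold to 9.19-fold.

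The 10 lowest genes all had 0 UMIs in the positive cell. Their bounds, against 3 counts in 9191 UMIs, ran from at least 2.02-fold to at least 11.3-fold lower. The exact 95% intervals were wider, with upper limits of the ratio from 0.109 to 0.616. IDO1, the tryptophan-degrading enzyme, had 627 UMIs in 32 of the 37 other cells and was at least 7.58-fold lower. GNLY, a cytotoxic granule protein, had 267 UMIs in 10 of them and was at least 3.23-fold lower. CCL3 had 203 UMIs in 14 of them and was at least 2.45-fold lower. The chemokine receptor CXCR4 had 168 UMIs in 35 and was at least 2.03-fold lower. SAT1, YWHAQ, MYL12A and 2 unnamed genes were also among the 10. In the second CCL1-rich barcode SAT1 had 2 UMIs, and IDO1, GNLY, CCL3, CXCR4, YWHAQ and MYL12A were at 0.

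The same genes were higher in the second CCL1-rich barcode, which had not entered the ranking. Against the same 37 cells, 19 of the 20 were at least 2-fold higher in it, beside 22.4% of all genes compared, and STAT4 was at 0. At its depth a single UMI could be enough: FBL, COPS5 and PHB2 had 1 UMI each, and STX11 and NUDT9 had 2. Whether it came from the same cell as the first barcode was not tested, so this is not independent support. The second barcode had 29 UMIs of IL22, 31 of CSF2, 8 of TNFRSF4, 27 of TNFRSF18 and 14 of IL2RA. IL2, the growth factor of T cells, had 15 UMIs in the first barcode, 8 in the second and 0 in the 37 other cells, but was too low to be ranked. Against the CCL1-negative NCR1-only cells of their own libraries, 12 of the 20 were at least 2-fold higher in the barcode without LPS, beside 14.4% of all genes, and 11 in the 4 h barcode, beside 11.9%. In those of 2 h the counts were 5, 6 and 6, beside 9.55%, 8.56% and 9.81%. The 20 were picked in 1 cell of 8 h, and several reached the minimum of 20 UMIs only through it. The depth of the barcodes was not matched either. No excess over all genes is therefore read from these counts. CSF2 had 834 UMIs in the barcode without LPS and 198 in that of 4 h, and 0, 38 and 1 in those of 2 h, and IL22 was at 0 UMIs in each of the 5 barcodes from outside 8 h.

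The 2 CCL1-rich barcodes of 8 h resembled each other. When 36 cells were thinned to 4000 UMIs each (the second CCL1-rich barcode and the NCR1-only cells of at least that depth), the variance between the CCL1-rich barcodes was 1.22 times that of counting noise, over 260 genes. Among the 629 other pairs this index ran from 1.05 to 6.24 with a median of 2.07, and 8 pairs had an index at or below that of the CCL1-rich barcodes. Pairs of 1 CCL1-rich barcode with another cell had indices of at least 2.55. CCL1, by which the 2 barcodes were picked, was among the genes compared and was at 0 in the other cells. This raises the indices of such pairs, so their distance from 1.22 is not read as a result. At full depth the first barcode had 1.96 times the UMIs of the second and 2.09 times its CCL1 UMIs, and 2 of 199 genes differed by more than 3 SD of counting noise. Their barcode sequences differed at 12 of 16 bases. Whether they came from 1 cell or from 2 was not tested, so they are not counted as independent cells.

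**Figure D4:**
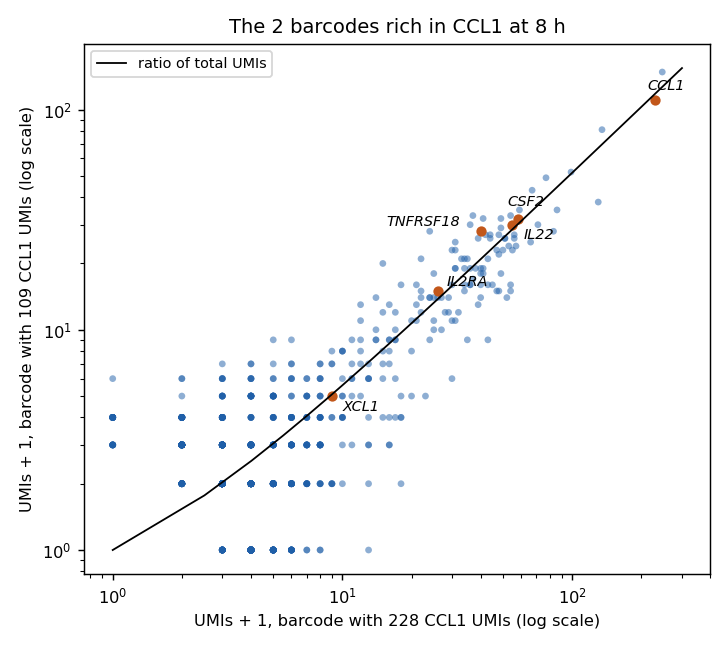
UMIs + 1 per gene in the CCL1-rich barcode with 228 CCL1 UMIs (x) and in that with 109 (y), both axes on a log scale, for the 900 genes with the most UMIs in the pair. Points are genes, the line is the ratio expected from the total UMIs (9191 and 4694), and CCL1, CSF2, IL22, TNFRSF18, IL2RA and XCL1 lie close to it.

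IL22, CSF2 and IL2 were concentrated in these barcodes less than CCL1 was. The barcodes were picked by their CCL1 UMIs, which favours CCL1 in this comparison. At 8 h the cells kept had 133 IL22 UMIs, of which 83, or 62.4%, were in the CCL1-rich barcodes and 50 in 43 other cells. For CSF2 the share was 56.4%, with 68 UMIs in 32 other cells, and for IL2 74.2%, with 8 UMIs in 6 others. XCL1 had 8.05% there, TNFRSF18 4.54%, IL2RA 2.44% and CCL5 0.569%. These shares hold within the limits on cells only. Over every barcode of 8 h, the CCL1-rich barcodes held 83 of 661 IL22 UMIs, 88 of 331 CSF2 UMIs and 23 of 34 IL2 UMIs. Barcodes rich in these cytokines had CCL1 in a minority, except for IL2. Over every barcode of the 4 libraries, 27 had 5 or more UMIs of IL22 and 3 of these had a CCL1 UMI. So did 5 of 70 with CSF2, 3 of 45 with XCL1 and 1 of 51 with IFNG. Of those with a CCL1 UMI, 2 (IL22), 5 (CSF2), 2 (XCL1) and 1 (IFNG) held 5 or more CCL1 UMIs. The cytokines were picked because they were seen beside CCL1 in those same barcodes, and the depth of the barcodes was not matched. No excess over the 0.254% (78 of 30756) of all barcodes is therefore read from these counts. Of the 3 with IL2, 2 had CCL1, and those were the CCL1-rich barcodes of 8 h. The highest IL22 count, 506 UMIs at 8 h, was in a barcode with no CCL1 that lay outside the limits.

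By gene list, activation receptors and lymphocyte cytokines had the highest median ratios in the first barcode, under a filter that favours genes high there. Of 6 activation receptors measured, 4 were at least 2-fold higher in the positive cell (CD69, IL2RA, TNFRSF4 and TNFRSF18), with a median log2 ratio of 4.27, beside 20.5% of genes higher and a median of -0.25 over all 1519 genes. Of 5 lymphocyte cytokines measured, 4 were higher (IL22, CSF2, TNFSF10 and FASLG), with a median of 1.94. Of 16 signalling and transcription genes, 7 were higher (NFKBIA, BATF, STAT4, NFKB1, JUNB, REL and ID2), with a median of 0.67. Of 5 CC and XC chemokines, 1 was higher (XCL1), close to the share over all genes, with a median of -1.29. Genes at 0 in the positive cell numbered 503 of the 1519, and with these set at their bound the medians were 4.27, 1.97, 1.24 and -0.60, beside 0.83 over all genes. No chemokine receptor had enough UMIs to be measured. The 20 UMIs needed included those of the positive cell. IL22 had 54 UMIs in it and 0 in the 37 others, CSF2 57 and 2, and TNFRSF4 16 and 6. CD69 had 12 and 11, FASLG 2 and 19, and STAT4 5 and 15. These genes were measured only through the positive cell. The counts of higher genes in these lists are therefore not read as an excess over all genes.

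CCR8, the receptor of CCL1, was nearly undetected. It had 1 UMI in the cells kept at 2 h and 0 in the other 3 libraries, so the pairing of ligand and receptor could not be followed at this depth. CCL8, CCL11 and CCL2 follow CCL1 in this order along the chromosome in the RefSeq annotation of cattle. CCL2 and CCL8, chemokines that attract monocytes, had other time courses. CCL2 had 7539, 1254, 375 and 1139 CPM (no LPS, 2 h, 4 h and 8 h), and CCL8 707, 395, 80.3 and 130 CPM. Both were highest without LPS and lowest at 4 h. CD14 had a UMI in 15.8%, 6.37%, 3.98% and 12.9% of the cells kept in the same order, and the part of the monocyte share in these levels was not tested. CCL11, which lies between them, had no UMI in the cells kept of any library. CCL20, a chemokine for CCR6-bearing cells, peaked at 2 h with 591 CPM and was at 52.9 to 55.8 CPM in the other libraries. In the CCL1-rich barcodes of 8 h CCL2 had 1 and 0 UMIs, and CCL3, CCL4, CCL8 and CCL20 were at 0.

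Few genes had a time course like that of CCL1. Likeness was the log2 ratio of CPM + 1 at 8 h to that of the highest other library, over 4 libraries and 10007 genes with at least 200 UMIs. CCL1 had 3.90. The next were ENSBTAG00000009943 with 1.32, 2 other unnamed genes, and XCL1 with 0.95, from 3.90, 4.16, 3.36 and 8.95 CPM. The 2 richest cells of 8 h held 42.95% of the 943 ENSBTAG00000009943 UMIs and 43.62% of the 149 of XCL1. The CCL1-rich barcodes themselves had 246 and 147 UMIs of the former and 8 and 4 of the latter. Over every barcode the values of CCL1, ENSBTAG00000009943 and XCL1 were 0.37, 0.05 and -1.03. ZC3H10, a zinc finger gene, had 0.91 from UMIs in 1535 cells of 8 h, and 0.87 over every barcode. MICOS10, of the mitochondrial inner membrane, had 0.89 from 443 cells and 1.02 over every barcode. PGAM2 (0.88), an unnamed gene (0.88), GATA2 (0.80) and TGM2 (0.80) followed.

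Single CCL1 UMIs were also more frequent at 8 h. Cells within the limits with at least 1 UMI were 17 (0.217%) in no LPS, 6 (0.0608%) in 2 h, 3 (0.0406%) in 4 h and 38 (1.11%, 0.790% to 1.53%) in 8 h. After thinning every cell to 1000 UMIs, with 508, 429, 284 and 377 shallower cells left out, the shares were 0.0821%, 0.0318%, 0% and 0.626%. The 4 h count of 0 of 7103 cells allows a share of up to 0.0422%. Of the 36 cells of 8 h with a single UMI, 0 had an NCR1 UMI, beside 49 (1.45%) of the 3373 cells without CCL1, so no difference is read from it. Their median depth was 3048 UMIs, beside 4585 in the cells without CCL1. Of the 36, 21 (58.3%) had UMIs of at least 2 of NCR1, CD3E, CD14 and MS4A1, which mark different cell types, beside 413 (12.2%) of the cells without CCL1. IL22 was detected in 1 of the 36 (2.78%) and CSF2 in 1, beside 42 (1.25%) and 31 (0.919%) of the cells without CCL1.

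By marker status at 8 h, 3 of 1550 cells with CD3E as their only marker had a CCL1 UMI (0.194%, 0.0399% to 0.565%). For MS4A1 alone, in B cells that stand here for a type not known for CCL1, it was 6 of 663 (0.905%, 0.333% to 1.96%), and for CD14 alone 2 of 170 (1.18%, 0.143% to 4.19%). The median depths were 5244.5, 5410 and 1550.5 UMIs. The share in CD3E-only cells was thus no higher than that in MS4A1-only cells, and neither is read as expression. Cells with 2 or more of the 4 markers had a CCL1 UMI in 21 of 434 (4.84%, 3.02% to 7.30%) at a median of 3057 UMIs, and those with 3 or more in 8 of 69 (11.6%, 5.14% to 21.6%). Without LPS the share for 2 or more was 1 of 699 (0.143%). The part of free RNA and of barcodes with more than 1 cell in these shares was not tested.

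**Figure D5:**
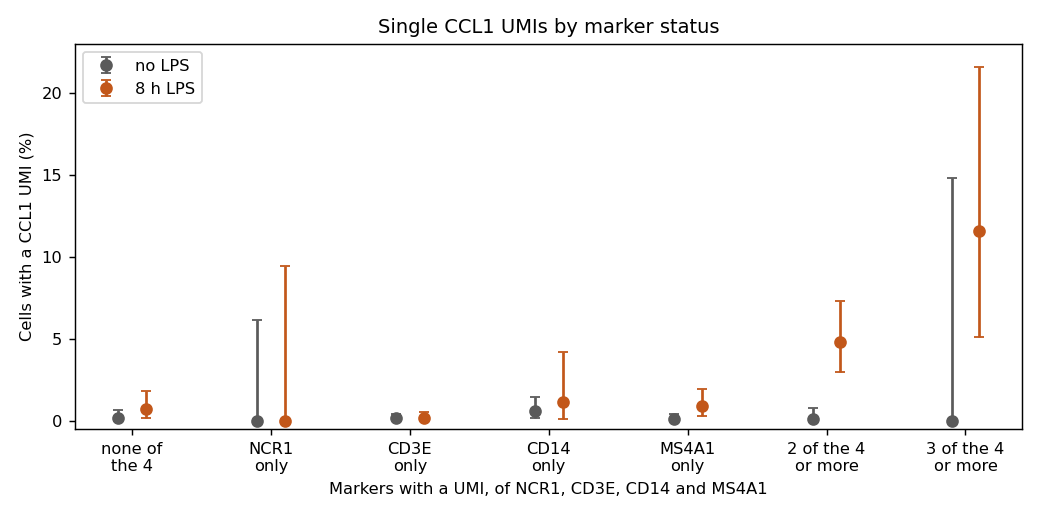
Share of cells with a CCL1 UMI by which of NCR1, CD3E, CD14 and MS4A1 had a UMI, without LPS (grey) and at 8 h (orange), in the cells within the limits with fewer than 5 CCL1 UMIs. Bars are exact 95% binomial intervals, and at 8 h the share is 4.84% with 2 or more markers and 11.6% with 3 or more, beside 0.194% with CD3E alone.

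The scATAC-seq gene tables, which the choice of the gene did not use, gave CCL1 levels (CPM) whose counting intervals overlapped in the 4 libraries. The assay cuts open chromatin with a transposase and counts the fragments of each nucleus. CCL1 had 13, 442, 411 and 168 counts, which gave 13.3 CPM (7.10 to 22.8), 14.6 CPM (13.3 to 16.0), 15.3 CPM (13.9 to 16.9) and 14.1 CPM (12.01 to 16.3). The interval without LPS was wide, and its library had a median of 213 counts per barcode, beside 5171, 5205 and 2250. With barcodes of at least 500 counts alone, no LPS had 3 CCL1 counts and 8.83 CPM (1.82 to 25.8), and the other libraries lost no barcode. Most counts were even numbers (83.3% to 89.0% of the CCL1 values above 0), so these intervals take single counts as independent and are too narrow.

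The chromatin counts of CCL1 were spread over many barcodes. A CCL1 count was found in 7, 218, 185 and 84 barcodes, with at most 2, 4, 9 and 8 counts in any of them. The 2 richest barcodes held 7.14% of the CCL1 counts at 8 h. As no barcode of 8 h had more than 8 counts, this share is not set against that of the UMIs. Barcodes with a CCL1 count were deeper than the others, with medians of 9482 against 4967.5 counts at 2 h, 14331 against 4796.5 at 4 h and 6440.5 against 2195 at 8 h. MS4A1 had a count in 40.8%, 40.5% and 26.2% of them at these times, beside 22.7%, 22.4% and 13.2% of the other barcodes. NCR1 was listed at 2 h, where 5 of the 218 barcodes (2.29%) had a count, beside 0.658% of the other, shallower barcodes. NCR1 in the other scATAC-seq libraries and CD3E in all 4 were not analysed here.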

How the data were processed

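The scRNA-seq tables that the authors deposited hold UMI counts of each barcode for each gene, as Cell Ranger gave them on ARS-UCD1.2/bosTau9, before any limit on cells. Their scATAC-seq tables hold counts of each barcode for each gene, also without normalization, and the rule for assigning fragments to genes is not given in the sources used here. The limits on cells follow the study's methods, reading the UMI limit as a minimum, with 13 mitochondrial genes. They left more cells in each library than the study states, so the cells kept are not its cell sets. No doublet caller was run, and barcodes with markers of several cell types were counted instead.

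UMIs were summed, scaled to CPM and compared as log2 ratios with a pseudocount of 1 CPM. Intervals are exact Poisson (sums), Clopper-Pearson (shares) and conditional binomial (ratios). The floor was 3 counts. No p-value was computed.

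The genes named are the 20 highest and 10 lowest ratios against CCL1-negative NCR1-only cells at 8 h (at least 20 UMIs, detected in at least 10% of the cells of the higher group), the 10 most like in time course, and members of gene and marker lists. Some items under these rules are not reported here. CXCL8, IL1B and the comparison of concentration were added after the data were seen. CCL1 and all lists were chosen with earlier results of these data known. TRAC, TRDC, TRGC3, TRGC4, PPBP, PF4 and XCL2 were not analysed here. RefSeq (assembly ARS-UCD2.0) was used for gene order only.

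Python 3.11.15 with scipy 1.17.1, and R 4.3.3 with edgeR 4.0.16 and DESeq2 1.42.0 for scaling factors only, were used. The ratio step was tested on simulated data. Alternatives were other cell limits, scalings, pseudocounts, thinning, minimum counts and gates, and leaving out the richest cells.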

Additional observations from a re-analysis of the deposited data

How the results depend on the processing

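No paired analysis was possible because a treatment had a single library in each assay. The ratio of CCL1 to no LPS kept its direction at each time under the alternatives run. In the barcodes above the gene limit taken alone, it was -4.49 on the log2 scale at 8 h. Of the alternatives, 75 values stayed within their counting intervals (for counts of genes, within 1.5 times) and 42 moved beyond them. TMM and DESeq2 scaling were among the former, with 8 h at 21.0 CPM under each. So was the scATAC-seq level without LPS in barcodes with at least 500 counts, 8.83 CPM beside 13.3 CPM.

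The 4 levels (no LPS, 2 h, 4 h and 8 h) were 9.20, 1.16, 1.91 and 12.2 CPM with every deposited barcode, 9.21, 1.16, 1.92 and 12.2 CPM with no upper limit on genes, and 0.312, 0.0209, 0 and 1.98 CPM without the 5 richest cells of each library. The 8 h level was 8.71 CPM without its richest cell. Of the alternatives chosen after seeing the data, leaving out barcodes with 5 or more CCL1 UMIs gave 2.16 CPM at 8 h and, from every barcode, 1.26 CPM. The log2 ratio to no LPS, which was -0.46, -0.52 and 3.90 at 2 h, 4 h and 8 h, became -2.24, -1.81 and 0.37 with every barcode as with no upper limit on genes, and -1.45, -1.75 and 5.07 with a pseudocount of 0.1 CPM. At 8 h it was 2.73 without the richest cell, 1.19 without the 5 richest, 1.01 without barcodes of 5 or more CCL1 UMIs, and 0.59 likewise over every barcode. These shifts follow from which barcodes enter and from the pseudocount.

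The share of cells with at least 2 CCL1 UMIs was 0.0256% without LPS, 0.0101% at 2 h and 0.0586% at 8 h, and thinning to 1000 UMIs gave 0.0821% without LPS, 0% at 4 h and 0.626% at 8 h. The NCR1-only share of the 8 h CCL1 UMIs, 61.1%, was 90.6% in cells with at least 3 NK markers and none of CD3E, CD14 and MS4A1, and 0% without the richest cell or the 5 richest. The 10 richest cells held 92.5% of the 8 h UMIs, and 86.7% when each cell was scaled to 10000 UMIs. The 868 CPM of NCR1-only cells became 635 CPM over every cell with NCR1 and 0 without the richest cell. The 311 genes at least 2-fold higher (20.5% of those measured) became 86 (16.3%) with at least 50 UMIs per gene and 1355 (13.1%) against all CCL1-negative cells of 8 h, where the number of genes measured also changed, to 529 and 10372. Because CCL1 had at most 22 UMIs in the cells kept of the other libraries, changes among those libraries of less than the counting intervals are not resolved.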
